A study of Homo sapiens with 12 samples.

Results

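The mitochondrial ribosomal proteins are the nucleus-encoded proteins, named MRPL in the large and MRPS in the small subunit, that build the ribosome of mitochondria together with RNAs made from mitochondrial DNA. Members were the genes whose single annotated symbol was MRPL or MRPS and a number, with pseudogenes and antisense genes left out. There were 75 of them among 19775 genes measured, 48 of the large and 27 of the small subunit, on 140 probe sets of the Affymetrix HG-U133 Plus 2.0 array. Each gene was read on its brightest probe set, taken over all 12 arrays together. The rule for members used symbols only, but it was chosen with earlier results of these data known. In the U937 cells studied here, treatment with PMA lowered most of these transcripts, by a median of 0.59 log2 units in the large and 0.58 in the small subunit, raised MRPL52 and MRPS6, and doxycycline induction of the hairpin moved no member past the threshold.

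U937 is an established human line of histiocytic lymphoma with the character of an early monocyte, and PMA is a phorbol ester that activates protein kinase C and drives such cells toward a macrophage-like state. All 4 groups were the same line, stably transduced with a TRIPZ cassette, an inducible Tet-On hairpin against ZXDC1/2 known by 1 clone ID, and kept in puromycin. The vehicle group received 0.1% DMSO without doxycycline, and the PMA group 100 nM PMA without doxycycline. The other 2 groups, vehicle with doxycycline and PMA with doxycycline, received 0.5 µg/mL doxycycline daily for 4 days. The agent was added after the first 2 of these days and left for 3 days, the durations being those the labels state. Each group had 3 arrays, which the labels call biological replicates 1 to 3 without saying what separates them, so p-values measure the spread between these samples. No group with doxycycline and without the hairpin was used here, so an action of the drug and one of the hairpin cannot be told apart.

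The mitochondrial ribosome translates the few messages of the mitochondrial genome, all of which encode subunits of the respiratory chain and the ATP synthase. It descends from a bacterial ribosome: many of its proteins have a homologue in the bacterial ribosome, and others have none there. Its proteins are made in the cytosol and imported, so each one is transcribed from its own nuclear gene, and such genes are known as targets of the activators NRF1, GABP (an ETS family factor) and YY1, of the coactivator PGC-1alpha and of MYC. Doxycycline is a tetracycline, a class that binds bacterial ribosomes and is known to slow mitochondrial translation.

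Start regions of the members, whose genes lie on many chromosomes, are shown first. In the 250 bases before an annotated start, 4 short strings were searched on both strands: NRF1 as GCGCANGCG, ETS as CCGGAAG, YY1 as ATGGCGG and the E-box, the MYC and USF element, as CACGTG. Of the 75 members 67 were matched in the RefSeq table (GRCh38.p14), with 83 starts. The ETS string lay before 31.3% of these starts against 10.7% of the 22199 starts of protein-coding genes, and the NRF1 string before 18.1% against 8.49%. The YY1 string lay before 7.23% against 3.12%, and the E-box before 9.64% against 7.37%. Any of the 4 was present before 53% of member starts and 25.4% of all starts. A window can hold several of them, and the NRF1 string can match both strands at 1 place. Among members, the share with any string was 52.4% for starts of genes that fell with PMA and 55% for the others. The ETS string was found before 24 member genes. Over its 35 matches, with windows of alternative starts counted apart, the median position of the first base was -32 from the start. These are matches of letters, with no test, and not evidence of binding.

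The windows below are those of 3 strongly lowered members with different strings, of a pair that shares its start region, and of both raised members. Each runs 5′ to 3′ on the gene's strand and ends at the base before the start; capitals mark a matched string. MRPL27 (chr17:50373185-50373434, minus strand) has 2 ETS strings, from -52 to -46 and from -8 to -2. MRPS9 (chr2:105037819-105038068, plus strand) has the NRF1 string in reverse, from -39 to -31. MRPL37 (chr1:54199917-54200166, plus strand) has the NRF1 string in reverse and an E-box. MRPL46 (chr15:88467389-88467638, minus strand) shares 181 bases of its window with that of MRPS11, which runs the opposite way, and neither holds any of the 4 strings. MRPL52 (chr14:22829637-22829886, plus strand) has the YY1 string, and MRPS6 (chr21:34073328-34073577, plus strand) has none of them.
MRPL27: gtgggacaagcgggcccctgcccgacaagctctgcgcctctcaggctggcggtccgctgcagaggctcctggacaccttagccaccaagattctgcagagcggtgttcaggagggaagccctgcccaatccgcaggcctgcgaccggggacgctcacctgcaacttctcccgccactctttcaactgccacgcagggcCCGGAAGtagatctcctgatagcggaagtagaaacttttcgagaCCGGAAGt
MRPS9: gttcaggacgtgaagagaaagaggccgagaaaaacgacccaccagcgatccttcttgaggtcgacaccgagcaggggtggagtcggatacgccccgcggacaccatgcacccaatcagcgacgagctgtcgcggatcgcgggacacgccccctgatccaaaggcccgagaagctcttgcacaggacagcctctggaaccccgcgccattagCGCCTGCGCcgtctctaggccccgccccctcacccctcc
MRPL37: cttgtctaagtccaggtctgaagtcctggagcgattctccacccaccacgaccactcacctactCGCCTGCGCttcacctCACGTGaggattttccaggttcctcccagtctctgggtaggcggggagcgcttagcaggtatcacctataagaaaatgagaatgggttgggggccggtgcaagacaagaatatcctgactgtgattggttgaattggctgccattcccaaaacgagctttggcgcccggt
MRPL46: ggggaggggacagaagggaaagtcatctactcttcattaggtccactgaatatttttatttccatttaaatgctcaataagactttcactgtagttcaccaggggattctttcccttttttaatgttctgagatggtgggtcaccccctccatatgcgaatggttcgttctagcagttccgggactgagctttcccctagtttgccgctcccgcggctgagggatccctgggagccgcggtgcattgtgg
MRPL52: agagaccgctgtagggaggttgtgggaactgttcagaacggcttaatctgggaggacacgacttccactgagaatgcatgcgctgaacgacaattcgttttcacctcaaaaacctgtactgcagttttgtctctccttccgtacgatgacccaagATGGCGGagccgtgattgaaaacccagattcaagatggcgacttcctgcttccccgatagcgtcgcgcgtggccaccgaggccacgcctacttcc
MRPS6: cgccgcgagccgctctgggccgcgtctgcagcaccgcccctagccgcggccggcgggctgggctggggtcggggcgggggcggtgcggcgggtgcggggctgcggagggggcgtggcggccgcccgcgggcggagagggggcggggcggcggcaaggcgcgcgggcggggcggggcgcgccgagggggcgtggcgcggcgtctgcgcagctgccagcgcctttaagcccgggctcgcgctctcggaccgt

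Values of the samples as a whole were as follows. The deposited values are log2 intensities after RMA, and the median of an array lay between 5.16 and 5.22. ZXDC, the target of the hairpin, was lower with doxycycline in 6 of 6 numbered pairs, by 0.50 log2 units on average (exact permutation test within agents, two-sided p = 0.005, the smallest that 400 relabelings can give). The gap between 3′ and 5′ control probes of ACTB, a measure of RNA quality, was 1.99 to 2.72 on the arrays numbered 1, which occur once in every group, and 0.71 to 1.64 on the others. It averaged 1.443 in vehicle, 1.394 in vehicle with doxycycline, 1.505 in PMA and 1.892 in PMA with doxycycline. Standard deviations were 0.49 to 0.89. PMA with doxycycline had the largest ACTB gap at every number, but the largest GAPDH gap only at number 1. The bearing of RNA quality on comparisons with that group was not tested. On the arrays numbered 2 and 3 alone, PMA without doxycycline lowered 38 large and 24 small subunit genes, against 4012 of all 19775 genes. Of 9 myeloid markers measured, CSF1R, ITGB2, TYROBP and FCER1G rose with PMA. The list also held CD33, SPI1, PTPRC, LYZ, CD4 and CEBPA, whose directions are not given here. Of 6 T cell, 5 epithelial, 5 fibroblast and 3 erythroid markers 0 were called without doxycycline, and of 4 B cell markers PAX5 fell. Among all genes 18.9% were called lower and 12.7% higher. In bulk RNA, fewer cells of a type and less RNA per cell cannot be told apart.

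PMA lowered most members of both subunits. Without doxycycline, 38 of 48 large subunit genes fell and MRPL52 rose, while 9 did not pass; of 27 small subunit genes 23 fell, MRPS6 rose and 3 did not pass. Called means a limma adjusted p under 0.05, with Benjamini-Hochberg adjustment over all 19775 genes, of which 18.9% were called lower and 12.7% higher in this comparison. The median difference of all 75 members was -0.58, against 0.01 over all genes tested. A fall of at least 0.5 log2 units was seen in 44 members and one of at least 1 in 7. In 61 members every PMA array lay below every vehicle array, against 23% of all genes; in 4 members every PMA array lay above, against 18.8%, and in 10 the arrays overlapped.

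**Figure D1:**
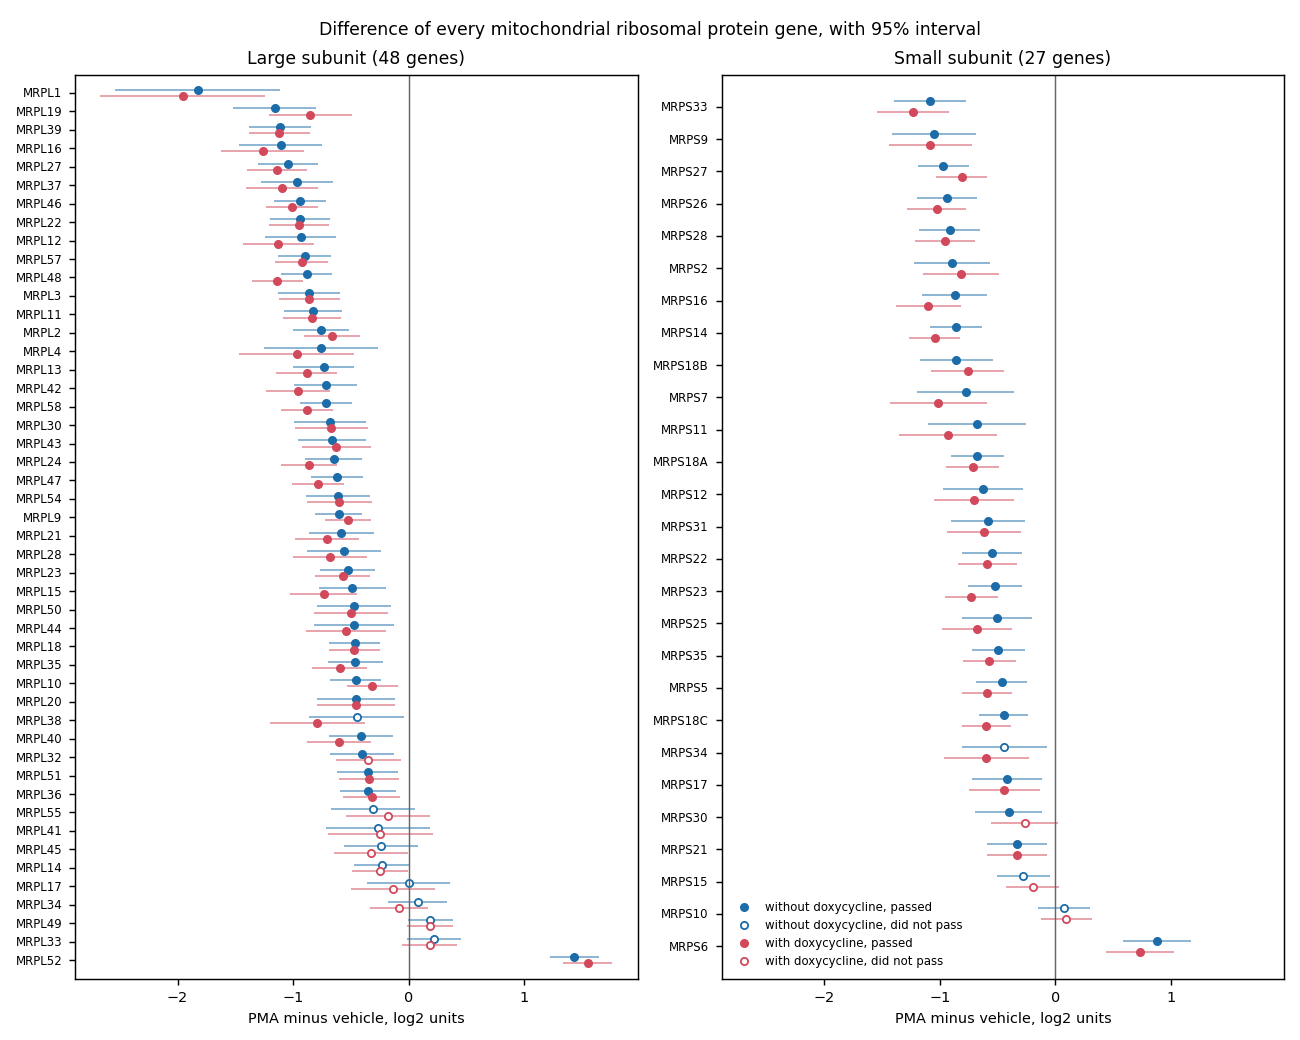
Difference between PMA and vehicle (horizontal axis, log2 units) of each of 48 large and 27 small subunit genes, without doxycycline (blue) and with it (red); points are limma estimates, lines 95% intervals, filled points passed adjusted p under 0.05. Most points lie left of 0 in both subunits. MRPL52 and MRPS6 are the filled points on the right, and MRPL33, MRPL49 and MRPS10 lie right of 0 in both comparisons without passing.

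The largest fall of the large subunit was that of MRPL1, the homologue of the bacterial L1 protein that forms a mobile stalk beside the exit of spent tRNA. Its log2 intensity was 8.30, 9.48 and 9.14 on the vehicle arrays and 6.70, 7.25 and 7.48 on the PMA arrays. The groups did not overlap, although the array numbered 1 was the lowest of its group in both. The difference was -1.83 (SE 0.33, adjusted p = 0.000588), 3.55-fold lower. MRPL19, whose bacterial homologue sits where the subunits join, read 9.38, 9.95 and 9.96 with vehicle and 8.68, 8.37 and 8.75 with PMA, again with every PMA array below every vehicle array. It fell by 1.16 (SE 0.17, adjusted p = 8.56e-05). MRPL16, homologous to the bacterial protein that helps to place tRNA in the aminoacyl site, fell from 10.44, 10.63 and 10.54 to 9.06, 9.59 and 9.63, a difference of -1.11 (SE 0.17, adjusted p = 0.000121). MRPL27, whose homologue reaches toward the peptidyl transferase centre, fell from 9.70, 9.95 and 9.92 to 8.63, 8.83 and 8.98, a difference of -1.05 (SE 0.12, adjusted p = 1.14e-05). The mitochondria-specific protein MRPL37 fell from 10.76, 10.99 and 11.07 to 9.89, 9.88 and 10.16, a difference of -0.97 (SE 0.14). In each of these genes the lowest vehicle array was above the highest PMA array.

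MRPL39, another mitochondria-specific protein, differed by -1.11 (SE 0.12, adjusted p = 8.25e-06), from 10.82, 10.78 and 10.79 to 9.82, 9.40 and 9.83. It was the one member whose probe sets passed in opposite directions: the other probe set, with a mean of 5.64 over the 12 arrays, differed by 0.28 without doxycycline (adjusted p = 0.601) and rose by 1.12 with doxycycline (adjusted p = 0.0141), in a fit of all 41097 probe sets with 1 symbol. The mean of both probe sets did not pass without doxycycline (-0.42, adjusted p = 0.102), so the fall of MRPL39 rests on the brighter one. Of the 37 members with several probe sets, 30 had all of them on the same side of 0, and 16 had all called the same way. Counted by probe set, 91 of 140 fell and 3 rose, against 15.5% lower over all probe sets with 1 symbol.

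In the small subunit, MRPS33, MRPS9, MRPS27, MRPS26, MRPS28 and MRPS2 fell most. MRPS33, found only in mitochondria, read 10.28, 10.43 and 10.30 with vehicle and 9.47, 8.97 and 9.31 with PMA, a difference of -1.08 (SE 0.14, adjusted p = 4.52e-05). MRPS9, homologous to a bacterial protein whose tail touches the tRNA in the peptidyl site, read 9.98, 9.83 and 9.87 with vehicle and 9.25, 8.56 and 8.71 with PMA, a difference of -1.05 (SE 0.17, adjusted p = 0.000211). In both, the PMA array numbered 1 was the highest of its group and still lay below every vehicle array. MRPS27, which carries the repeats of RNA-binding pentatricopeptide proteins, fell from 9.89, 10.03 and 10.03 to 9.07, 9.00 and 8.97, a difference of -0.97 (SE 0.10). MRPS26 fell from 10.70, 10.97 and 11.00 to 9.93, 9.95 and 9.96, a difference of -0.94 (SE 0.12), with the 3 PMA arrays close together. MRPS28 differed by -0.92 (SE 0.12), and MRPS2, the homologue of bacterial S2, by -0.89 (SE 0.15).

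**Figure D2:**
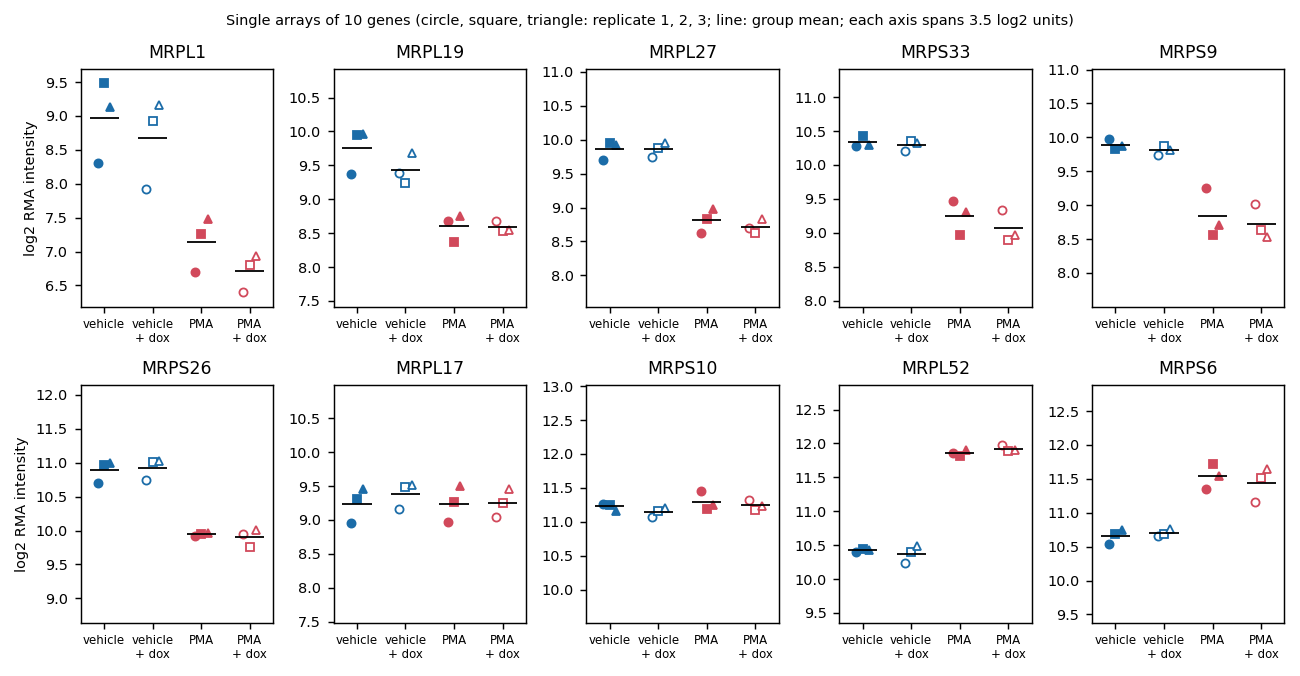
Log2 RMA intensity (vertical axes, each spanning 3.5 units) on the 12 single arrays of 10 genes, in vehicle (blue) and PMA (red), without doxycycline (filled) and with it (open); shapes are replicates 1 to 3 and lines are group means. MRPL1 to MRPS26 lie lower in both PMA groups, MRPL17 and MRPS10 overlap, and MRPL52 and MRPS6 lie higher.

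MRPL52, a mitochondria-specific large subunit protein, was the one member of its subunit that rose past the threshold. It read 10.40, 10.44 and 10.43 with vehicle and 11.86, 11.82 and 11.90 with PMA, so that the arrays of each group lay close together and far from the other group. The difference was 1.44 (SE 0.10, adjusted p = 9.05e-08), 2.71-fold higher, and its other probe set rose as well, by 1.20. MRPS6, the homologue of bacterial S6, read 10.54, 10.68 and 10.74 with vehicle and 11.35, 11.72 and 11.54 with PMA, also without overlap. It rose by 0.88 (SE 0.14, adjusted p = 0.00016) on its only probe set. Neighbouring genes, chosen after their values were seen, were higher with PMA too: next to MRPL52, MMP14, a membrane-bound matrix metalloproteinase, rose by 1.20 and SLC7A7, an amino acid transporter, by 3.60. SLC5A3, a myo-inositol transporter gene that overlaps MRPS6 on the same strand, rose by 1.54 (SE 0.12). Whether signal or control is shared between these genes was not tested.

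Apart from these, the members nearest to 0 were MRPL17, MRPL34 and MRPL49 in the large and MRPS10, MRPS15 and MRPS21 in the small subunit. MRPL17, whose homologue lies at the tunnel exit, read 8.96, 9.31 and 9.45 with vehicle and 8.97, 9.26 and 9.50 with PMA, a difference of 0.00 with a 95% interval from -0.36 to 0.36. Its groups overlapped fully. The NRF1 string matches its start window 3 times, from -81 to -73, from -80 to -72 on the other strand and from -43 to -35. The first and second of these matches overlap. MRPS10 read 11.26, 11.25 and 11.16 with vehicle and 11.46, 11.19 and 11.24 with PMA, a difference of 0.07 with an interval from -0.15 to 0.30. MRPL34, the homologue of a small bacterial protein of the large subunit, differed by 0.08 (interval from -0.17 to 0.33). MRPL49 differed by 0.19 (adjusted p = 0.149), and after cyclic loess scaling it passed as higher by 0.30 (adjusted p = 0.0213). MRPL33, named after its values were seen, differed by 0.22 (adjusted p = 0.161) and also passed as higher after cyclic loess. In MRPL33 and MRPL49 every PMA array lay above every vehicle array, without and with doxycycline. MRPS15 differed by -0.28 (adjusted p = 0.0658), and it passed as lower with a replicate block (adjusted p = 0.0403). MRPS21 fell by 0.33 at an adjusted p of 0.0494, and leaving out any of several arrays ended its call, for example vehicle replicate 3 (-0.27, adjusted p = 0.186).

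Proteins that share a place in the ribosome were set side by side, without doxycycline, where 18.9% of all genes were called lower. The 3 members listed for the lateral stalk, the arm that recruits translation factors, fell. MRPL12, whose bacterial homologue L12 contacts the elongation factors directly, differed by -0.93 (SE 0.14), MRPL11 by -0.83 (SE 0.12) and MRPL10, the anchor of the stalk, by -0.46 (SE 0.10). The other probe set of MRPL12, the one of unshared sequence, did not pass (-0.24, adjusted p = 0.177). Of 6 proteins around the exit of the nascent chain tunnel 4 fell: MRPL22 by 0.94, MRPL24 by 0.65, MRPL47 by 0.62 and MRPL23 by 0.53. The dimmer probe set of MRPL23, of unshared sequence, differed by 0.088 (adjusted p = 0.771). MRPL17 and MRPL45, the protein that ties the ribosome to the inner membrane, did not pass. MRPL45 read 9.26, 9.18 and 9.11 with vehicle and 9.27, 8.60 and 8.96 with PMA, a difference of -0.24 (SE 0.15), and without PMA replicate 1 it passed as lower (-0.40, adjusted p = 0.0403). Of 7 proteins of or beside the central protuberance, the crown of the large subunit, 6 fell. They were MRPL27 (-1.05), MRPL46 (-0.94), MRPL48 (-0.88), MRPL58 (-0.72), a release factor homologue built into the ribosome, MRPL18 (-0.46) and MRPL40 (-0.41). The call of MRPL40 was lost without vehicle replicate 2 (adjusted p = 0.0884), vehicle replicate 3 (0.065), PMA replicate 1 (0.105) or PMA replicate 2 (0.0635). MRPL38 did not pass (-0.45, adjusted p = 0.0938), and the replicate block put it past the threshold (adjusted p = 0.03).

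MRPL46 and MRPS11 share the start region printed above although they belong to different subunits. MRPL46 read 9.08, 9.19 and 9.19 with vehicle and 8.28, 8.14 and 8.22 with PMA. MRPS11 read 9.39, 9.64 and 9.80 with vehicle and 8.47, 9.11 and 9.21 with PMA. The groups did not overlap in either gene, and the differences were -0.94 (SE 0.10) and -0.68 (SE 0.20, adjusted p = 0.0159). The call of MRPS11 was lost without vehicle replicate 3 (adjusted p = 0.0734) or PMA replicate 1 (adjusted p = 0.0674).

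Members were also divided by evolutionary origin. Over all genes 18.9% were called lower and 12.7% higher without doxycycline. Of 30 large subunit members with a bacterial homologue 25 fell, with a median difference of -0.59, and of 18 without one, called mitochondria-specific here, 13 fell and 1 rose, with a median of -0.54. In the small subunit 14 of 17 with a homologue, the S18 paralogues included, fell and 1 rose, with a median of -0.67, and 9 of 10 mitochondria-specific members fell, with a median of -0.54. MRPS18A and MRPS30 carry small subunit names but lie in the large subunit in structures of the ribosome. MRPS18A fell by 0.67 (SE 0.11) and MRPS30 by 0.40 (adjusted p = 0.0351). The call of MRPS30 was lost without vehicle replicate 1, 2 or 3 (adjusted p = 0.087, 0.0639 and 0.0936) and without PMA replicate 2 or 3 (0.131 and 0.0964). With both genes moved to the large subunit, 40 of 50 large and 21 of 25 small subunit genes fell.

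PMA was also compared with vehicle between the 2 groups with doxycycline, whose 6 arrays are not those of the first comparison. It is not an independent repeat. Both comparisons came from 1 fit with a shared spread, and arrays of one number deviated together within an agent. Fitted on only its own 6 arrays, the first comparison lost 6 member calls and gained 1, and the second lost 3. Again 38 of 48 large and 23 of 27 small subunit genes fell and MRPL52 and MRPS6 rose, against 19.5% lower and 13% higher over all genes. The median difference was -0.67 in the large and -0.70 in the small subunit, against -0.01 over all genes. In both comparisons 59 members fell, 37 large and 22 small, and 2 rose, against 16.8% and 10.6% of all genes. In 65 members every PMA array lay below every vehicle array, against 24.4% of all genes. MRPL1 read 7.92, 8.93 and 9.15 in vehicle with doxycycline and 6.40, 6.80 and 6.93 in PMA with doxycycline, a difference of -1.96 (SE 0.33). MRPS33 read 10.20, 10.35 and 10.33 and then 9.34, 8.89 and 8.96, a difference of -1.23 (SE 0.14). MRPL52 read 10.23, 10.39 and 10.48 and then 11.98, 11.88 and 11.90, a difference of 1.55 (SE 0.10). The 3 genes kept their direction, and their arrays again did not overlap.

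Across the 75 members, the differences without and with doxycycline had Pearson's r of 0.97 and Spearman's rho of 0.93. This is a description across genes of the same cells, which are not independent replicates, and 74 members had the same sign. Called in neither comparison were 10 members: MRPL14, MRPL17, MRPL33, MRPL34, MRPL41, MRPL45, MRPL49, MRPL55, MRPS10 and MRPS15. MRPL32 and MRPS30 fell past the threshold without doxycycline, and MRPL38 and MRPS34 with it; the interaction passed in none of these 4. Leaving out each of the 12 arrays in turn, 45 of the 59 members stayed called lower in both comparisons, and no call changed direction. The comparison without doxycycline lost most calls without PMA replicate 1, vehicle replicate 2 or vehicle replicate 3, with 12 in each case.

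No member passed the threshold with doxycycline in either agent. In vehicle-treated cells 0 of 75 members were called, against 0% of all genes; in PMA-treated cells 0, against 0.00506% or 1 gene; and for the interaction 0, against 0% (limma, adjusted p under 0.05). An unadjusted p under 0.05 was reached by 0 members in each of the 3. The differences ran from -0.32 to 0.15 in vehicle and from -0.44 to 0.19 in PMA. The 95% interval lay within 0.5 log2 units of 0 for 69 members in vehicle and 66 in PMA.

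The smallest p in vehicle was that of MRPL19, which read 9.38, 9.95 and 9.96 without and 9.38, 9.24 and 9.69 with doxycycline, a difference of -0.32 with overlapping groups (adjusted p = 1). The smallest in PMA was that of MRPL46, which read 8.28, 8.14 and 8.22 without and 8.04, 7.94 and 8.04 with doxycycline, a difference of -0.21 (limma adjusted p = 0.827), with each array of the second group below each of the first. MRPL15, a homologue of bacterial L15, differed by -0.26 and MRPS18C, 1 of 3 paralogues of bacterial S18 in human mitochondria, by -0.18 in PMA. For the interaction the smallest p was that of MRPL48, -0.25 (limma adjusted p = 1).

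In PMA-treated cells 60 of 75 members lay below 0 and in vehicle 39 did, where the medians over all genes were -0.006 and 0.016. In the numbered pairs of PMA arrays, 42 of 48 large and 23 of 27 small subunit genes were lower with doxycycline in pair 3, with medians of -0.17 and -0.15. The counts were 27 and 15 in pair 1 and 29 and 18 in pair 2, so the shift was mostly that of pair 3. Member medians were -0.007 (large) and -0.030 (small) in pair 1, and -0.058 and -0.059 in pair 2. Over all genes the medians of pairs 1, 2 and 3 were 0.02, -0.03 and -0.02. The share of all genes lower in each pair was not counted. The ACTB gap without and with doxycycline was 2.385 and 2.718 in pair 1, 1.121 and 1.318 in pair 2, and 1.01 and 1.641 in pair 3. Whether RNA quality bears on the shift was not tested. With each of the 6 numbered pairs as a replicate block, which the data allow because arrays of one number deviated together within an agent, 0 members were called in PMA (smallest adjusted p = 0.15), against 53 genes of all tested.

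**Figure D3:**
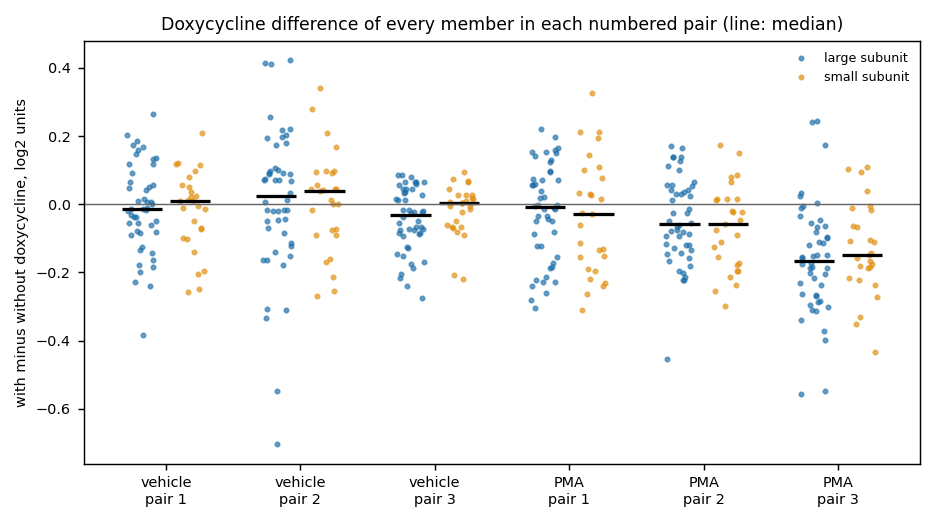
Difference between arrays with and without doxycycline (vertical axis, log2 units) of each large (blue) and small (orange) subunit gene, in the 3 numbered pairs of vehicle arrays and the 3 of PMA arrays; black lines are medians. The medians lie closest to the lower edge in PMA pair 3, at -0.17 and -0.15.

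Proteins that work with the mitochondrial ribosome were compared between PMA and vehicle without doxycycline. In this comparison 18.9% of all genes were called lower and 12.7% higher. Of 15 translation factors 9 fell and 1 rose, with a median of -0.44. TUFM, the elongation factor that brings tRNA to the ribosome, read 11.61, 11.99 and 11.93 with vehicle and 10.66, 10.89 and 11.01 with PMA, a difference of -0.99 (SE 0.15). MTRF1L, a release factor, rose by 0.34 (adjusted p = 0.0136). Of 18 genes for mitochondrial aminoacyl-tRNA synthesis 14 fell and 0 rose, with a median of -0.69, and WARS2, the tryptophanyl-tRNA synthetase, fell most (-1.21, SE 0.19). Of 24 genes for assembly of the ribosome and modification of its RNA 16 fell and 1 rose. C1QBP, a matrix protein needed for mitochondrial translation, fell by 1.17 (SE 0.14), and YBEY, an endoribonuclease, rose by 0.93 (SE 0.13). Of 4 ribosomal proteins that carry other names PTCD3 (-1.10) and GADD45GIP1 (-0.90) fell, and DAP3 (-0.03) and CHCHD1 (-0.28) did not pass.

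Genes that act on mitochondrial DNA or regulate nuclear genes of mitochondria were measured as well. Of 9 genes for transcription and upkeep of mitochondrial DNA 8 fell, where 18.9% of all genes were called lower. TFAM, which packages that DNA and starts its transcription, read 10.01, 10.54 and 10.45 with vehicle and 9.36, 9.02 and 9.25 with PMA, a difference of -1.13 (SE 0.16). Of 9 regulators 4 fell: PPARGC1A, which encodes PGC-1alpha, by 2.67 (SE 0.48), MYC by 1.54 (SE 0.24), GABPB1 by 0.70 and NRF1 by 0.65. YY1 (-0.25) and GABPA (-0.25) did not pass. Whether these changes bear on the members was not tested.

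Other groups of the same cells are given for scale, beside 18.9% of all genes called lower and 12.7% called higher. Of 68 nucleus-encoded respiratory chain subunits 23 fell, with a median of -0.17. Of 52 cytosolic ribosomal proteins 0 fell and 1 rose, with a median of -0.04. All 15 proliferation genes fell, with a median of -2.05, and their part in the fall of the members was not tested. No test between these lists was made.

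**Figure D4:**
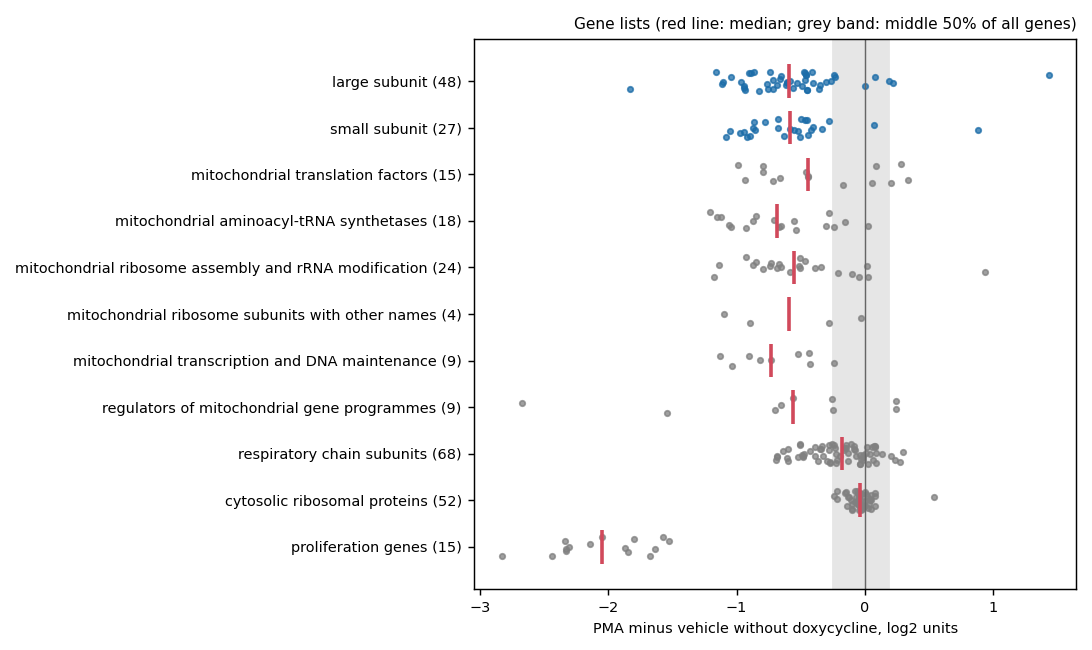
Difference between PMA and vehicle without doxycycline (horizontal axis, log2 units) of the genes of 11 lists, with the number of genes measured in brackets; points are genes, red lines list medians, and the grey band spans the 25th to 75th percentile of all genes, -0.24 to 0.19. Both subunits (blue) and the lists of mitochondrial translation have medians left of the band, and cytosolic ribosomal proteins lie within it but for 1 gene.

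Probe sets kept out because they match more than 1 gene bear on members not counted here. The probe set shared by MRPS24 and the readthrough gene URGCP-MRPS24 fell by 0.41 (SE 0.10, adjusted p = 0.00795, over 54613 probe sets) and by 0.50 with doxycycline.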

How the data were processed

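The samples were 12 arrays in 4 groups of 3, grouped by the titles in the labels. The deposited values are log2 intensities, and per the submitters' processing notes the authors used RMA to make them; its version is not given. No scaling and no filter on dim genes was added. Of 54675 probe sets 41097 had 1 symbol in the platform annotation; symbols were updated through Entrez numbers, and the brightest probe set, by its mean, stood for each of 19775 genes. The test was limma 3.58.1 under R 4.3.3, a linear model of the 4 group means on the 12 arrays with empirical Bayes moderation (8 residual and 5.6 prior degrees of freedom), two-sided, with Benjamini-Hochberg adjustment over all genes. The 5 comparisons were PMA against vehicle, once without and once with doxycycline, the effect of doxycycline under vehicle and under PMA, and the interaction. The procedure was also run on simulated data with independent noise on each array. That run left out the shared deviations of arrays of one number, so it does not bear on p-values under them.

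Members, gene lists and the rule for named genes were chosen with earlier results of these data known. Named were, per subunit, the 6 largest falls, the members called higher and the 3 nearest to 0 without doxycycline, the 3 smallest p of each doxycycline comparison, the role lists, MRPS18A and MRPS30, genes whose probe sets passed in opposite directions, and per pathway list the called gene with the largest change in each direction. MRPL33, MRPS11, GADD45GIP1, DAP3, CHCHD1, MYC, NRF1, GABPB1, GABPA, YY1 and the neighbours MMP14, SLC7A7 and SLC5A3 were named outside the rule, after their values were seen. The replicate numbers pair arrays within an agent: deviations from group means correlated at 0.57, 0.25 and 0.31 in vehicle and at 0.64, 0.29 and 0.32 in PMA for numbers 1 to 3. Between vehicle and PMA the correlation was 0.16, -0.01 and 0.15, and between vehicle with doxycycline and PMA 0.232, 0.269 and 0.145. For PMA with doxycycline it was 0.116, 0.101 and 0.125 against vehicle, and 0.196, 0.0708 and 0.059 against vehicle with doxycycline. The reported fit used no pairing. The replicate block over all groups, tried as an alternative, did join equal numbers across agents. Calls gained with it, such as those of MRPS15 and MRPL38, rest on that pairing. The alternatives tried were the averaged probe sets of a gene, only probe sets of unshared sequence, cyclic loess, a filter on dim genes, eBayes with trend, replicate blocks, each array left out, arrays numbered 2 and 3, only the 6 arrays compared, subunits after structures, updated symbols and, added after seeing the data, every probe set on its own. Start regions came from RefSeq (GRCh38.p14). The 3 arrays per group limit the precision.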

Additional observations from a re-analysis of the deposited data

Results flagged for a closer look

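A probe set that matches both MRPL53 and CCDC142, and was kept out of the gene comparisons for that reason, was higher with PMA than with vehicle without doxycycline, by 0.32 log2 units (SE 0.10, limma adjusted p = 0.0396 over 54613 probe sets), from a group mean of 9.58 to 9.90. With doxycycline the difference was 0.24 and did not pass (adjusted p = 0.127). Groups of 3 arrays were too small for a check of single outlying arrays, and no member passed the test of the interaction.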

How the results depend on the processing

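Both subunits kept a median fall with PMA under every alternative run. With a gene's probe sets averaged the median was -0.50 (small, no doxycycline), -0.53 and -0.54 (large and small, with doxycycline). Without probe sets of shared sequence 44 members remained measured: 20 large and 12 small fell and 0 large rose without doxycycline (small subunit median -0.68), and 22 and 12 fell with it, where the dimmer probe set of MRPL39 rose. Over all 17100 genes of this setting, 2840 were called lower without and 2931 with doxycycline. Both probe sets of MRPL52 are of shared sequence, so its rise was not measured here. After cyclic loess the medians were -0.49 and -0.47 without and -0.55 and -0.58 with doxycycline, and 3 large subunit genes rose in each comparison, MRPL33 and MRPL49 joining MRPL52, while 10 members lost their call as lower without doxycycline (MRPL20, MRPL32, MRPL36, MRPL40, MRPL44, MRPL50, MRPL51, MRPS17, MRPS21 and MRPS30) and 7 with it (MRPL10, MRPL20, MRPL36, MRPL50, MRPL51, MRPS17 and MRPS21). Of all 19775 genes, cyclic loess gave 2838 and 2947 called higher without and with doxycycline, and 3335 and 3444 called lower. On arrays numbered 2 and 3 the small subunit median with doxycycline was -0.80. By probe set, large and small medians were -0.48 and -0.50 without and -0.52 and -0.59 with doxycycline, 35 of 57 small subunit probe sets fell without it, and 2 and 3 large subunit probe sets rose. Without 1 array the large subunit median of the interaction ran from -0.12 to 0.012, and large subunit falls numbered 30 to 39 without and 33 to 39 with doxycycline. In the same fits 3138 to 3887 of all 19775 genes were called lower without and 3351 to 3986 with doxycycline.

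On its probe set of unshared sequence MRPL39 differed by 0.28 without and 1.12 with doxycycline, and MRPL23 by 0.088 and 0.30, both on dimmer probe sets. MRPL20 differed by -0.08 and 0.080. The mean of MRPL39's probe sets was -0.42 and -0.00. The cause was not tested. Of all values of single named genes under the alternatives, 1524 kept direction and side of the threshold, 65 lost and 16 gained a call, and 5 reversed. The replicate block over all groups changed no member's call to not passed and added calls for MRPS34, MRPS15, MRPL38 and MRPL55 without and MRPL32 with doxycycline; neither it nor the block of 6 pairs gave a member called for doxycycline or the interaction. The rule applied to updated symbols gave the same 75 members.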

Other observations

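The antisense gene MRPL20-AS1, kept out of the member list by its name, was lower with PMA by 0.49 log2 units without doxycycline (SE 0.12, limma adjusted p = 0.00792) and by 0.59 with it (adjusted p = 0.00211). MRPL20 fell by 0.45 and 0.46 (adjusted p = 0.0411 and 0.0369), but this call was fragile. It was lost after cyclic loess (-0.34 in each comparison), with the gene's probe sets averaged (-0.19 and -0.16, adjusted p = 0.308 and 0.388), on the probe set of unshared sequence, and without any of several single arrays, for example vehicle replicate 2 (adjusted p = 0.172, no doxycycline) or vehicle with doxycycline replicate 3 (adjusted p = 0.153, with doxycycline).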
